A study of Homo sapiens with 6 samples.

Results

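The genes described here are 46 genes of ribosome biogenesis: 45 nucleolar genes of rRNA transcription, modification and processing, with NOP2 among them, and the transcription factor MYC. They were listed by name and by known role, by a rule that uses no values, although earlier results of these data were known when the list was made. The table of counts lists 58288 gene identifiers, all 46 genes were found in it, and all 46 were among the 14415 genes that passed the filter on low counts and were tested.

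Ribosomes are assembled in the nucleolus, where RNA polymerase I copies the rRNA genes into a long precursor. Small nucleolar ribonucleoproteins (snoRNPs) guide the methylation and pseudouridylation of that precursor, and assembly factors fold, cut and export it as the separate small and large subunits. MYC is a transcription factor that binds DNA at the sequence CACGTG, called the E-box, and many genes of this pathway are known targets of it in growing and tumour cells.

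The cells were T24, a human bladder cancer cell line, and the study asked which pathways lie downstream of circ_0000235 (circ235), a circular RNA spliced from the CCNY gene. The 3 groups were cells given a control siRNA (siControl), a first siRNA against circ235 (siRNA1) or a different siRNA against circ235 (siRNA2), with n = 2 libraries each, labelled as biological replicates. The RNA was enriched with oligo dT beads, and circular RNAs lack a poly(A) tail, so the counts hold no value for circ235 and the knockdown cannot be read from them. All 6 libraries came from the same line, no group without an siRNA was analysed here, and both siRNAs were compared with the same 2 siControl libraries.

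The libraries held 15373992 to 19912893 counts. The 2 libraries of a group were further apart than counting noise allows (chi-square of 23.5 to 35.4 for each degree of freedom, over genes). The 100 genes with the most counts took 22.4% and 24.3% of the siRNA2 libraries, against 27.9% to 31.5% of the other 4, so the siRNA2 libraries stood apart in composition. Each value is a share of its library, so a change in the RNA per cell cannot be seen. The epithelial keratins KRT7, KRT8 and KRT18 were high in every library, at 619 to 2307 CPM. The urothelial and epithelial markers UPK1A, UPK2, UPK3A, GATA3, KRT5, KRT19, TP63 and CDH1 were at or near 0 in all 6 libraries. EPCAM of the same list measured 1.28 to 2.93 CPM, and PPARG 22.6 and 23.2 CPM in siControl, 39.5 and 45.9 CPM with siRNA1, and 49.2 and 51.1 CPM with siRNA2. The leukocyte markers PTPRC and CD3E were at 0, while CD14 had means of 2.85 CPM in siControl, 10.5 CPM with siRNA1 and 1.92 CPM with siRNA2. Levels are given as CPM, read counts scaled to the size of the library after TMM, a correction for differences in library composition. Differences are log2 fold changes with their standard error (SE) from edgeR's quasi-likelihood test, and a gene is called where its Benjamini-Hochberg adjusted p over all 14415 genes is under 0.05.

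The E-box was looked for in the promoter windows of RefSeq (GRCh38.p14), from 250 bases before to 50 bases after each annotated start, because MYC is one of the 46 genes and the others include known targets of it. The letters searched were CACGTG, which read the same on both strands. A window was found for 40 of the 46 genes, and 17 of the 40 (42.5%) held the letters, against 2548 of 35116 windows (7.26%) of all genes. In 15 of these 17 genes the site nearest the start lay within 50 bases of it. The 35116 windows were not limited to genes tested here or to a single window per gene, so their share is not a matched background. The 11 sequences below belong to the genes called against siControl under either siRNA. They run 5′ to 3′ on the strand of the gene, with the E-box in capitals.
MYBBP1A: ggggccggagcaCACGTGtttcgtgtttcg
NOP2: aggtccggattgCACGTGgagggccgc
FBL: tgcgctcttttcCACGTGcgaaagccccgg
NOP10: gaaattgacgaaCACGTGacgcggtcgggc
RRP9: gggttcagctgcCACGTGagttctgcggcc
BYSL: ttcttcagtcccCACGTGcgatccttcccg
LTV1: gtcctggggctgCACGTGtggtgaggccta
PES1: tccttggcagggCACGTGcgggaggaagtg
EBNA1BP2: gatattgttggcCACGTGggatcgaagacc
MRTO4: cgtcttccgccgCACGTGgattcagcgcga
UTP20: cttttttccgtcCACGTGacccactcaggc

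The MYBBP1A and NOP2 windows lay on the minus strand at chr17:4555340-4555369 and chr12:6568242-6568268, and both genes were called lower under siRNA1. The next 8 belong to genes called lower under siRNA2. FBL (chr19:39846356-39846385), NOP10 (chr15:34343130-34343159), RRP9 (chr3:51941892-51941921), PES1 (chr22:30591880-30591909) and EBNA1BP2 (chr1:43172790-43172819) are on the minus strand. BYSL (chr6:41921515-41921544), LTV1 (chr6:143843354-143843383) and MRTO4 (chr1:19251807-19251836) are on the plus strand. UTP20 (chr12:101280083-101280112, plus strand) was called higher under siRNA2. The E-box was present in 8 of the 17 windows of genes called lower under siRNA2 (47.1%) and in 1 of the 6 of genes called higher (16.7%). It was also in 8 of the 17 windows of genes not called under siRNA2 (47.1%). MYBBP1A and NOP2, called under siRNA1, are among these 8. These shares describe letters in a window and not the binding of a factor. No window was found for TCOF1, NOP58, NOLC1, RRP12, BOP1 and MYC.

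In siControl cells the levels of the 46 genes per kilobase of the longest transcript differed widely. NPM1, an abundant nucleolar histone chaperone, was highest at 721 ± 16.6 CPM per kilobase (SD, n = 2). FBL, the ribose methyltransferase of the box C/D snoRNPs, followed at 289 ± 72.3 CPM per kilobase and NOP10, a small protein of the box H/ACA snoRNPs, at 260 ± 75.9 CPM per kilobase, which did not differ beyond their spread. BOP1 (200 ± 65.5 CPM per kilobase), NCL (192 ± 6.94 CPM per kilobase) and NOP56 (171 ± 25.5 CPM per kilobase) came next, again within their spread. MYC stood at 76.0 ± 5.53 CPM per kilobase and NOP2 at 46.0 ± 1.37 CPM per kilobase. The lowest 5 were UTP20 (3.82 ± 0.771 CPM per kilobase), HEATR1 (2.46 ± 1.22 CPM per kilobase), RRN3 (2.32 ± 1.31 CPM per kilobase), EMG1 (1.59 ± 0.381 CPM per kilobase) and PPAN (1.55 ± 0.00369 CPM per kilobase), and their neighbours in this order did not differ beyond their spread. PPAN had only 39 and 42 counts in siControl, so its SD lies below its counting error.

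With siRNA1, NOP2 and MYBBP1A fell to about 0.41 of their siControl levels, and no other gene of the 46 was called. The 2 called genes are 4.35% of the 46, against 5.88% of all 14415 genes called in this comparison (3.64% lower and 2.24% higher), so the share was no larger than the background in this fit. The share was larger by DESeq2 (15.2% of the 46 against 10.5% of all genes) and after removal of a length and GC trend (23.9% against 12.9%). Without the filter on low counts it was 17.4% against 6.5%. The 6.5% is a share of a larger set that took in genes of very low counts, so it is not a like background. At an unadjusted p under 0.05 by edgeR there were 15 genes of the 46, against 3644 of all 14415. The median log2 fold change of the 46 genes was -0.22, beside -0.03 for all genes tested, with 33 genes fitted lower and 13 higher. The siRNA1 and siControl libraries did not overlap in 27 of the 46 genes, against 55% of all genes tested.

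With siRNA2, 26 of the 46 genes (56.5%) were called, against 31.4% of all genes tested. Of these, 19 fell (41.3% of the 46, against 15.7% of all genes called lower) and 7 rose (15.2%, against 15.7% called higher). Proteins of the snoRNPs and factors of the large subunit made up most of the genes that fell, led by NHP2, BOP1 and FBL at 0.340, 0.362 and 0.395 of the siControl level. RNA polymerase I genes and the longest genes of the small subunit processome made up most of those that rose, led by HEATR1 (4.73-fold) and RRN3 (4.39-fold). The median log2 fold change was -0.36, beside 0.00 for all genes tested, and the siRNA2 and siControl libraries did not overlap in 40 of the 46 genes, against 71.4% of all genes. Without TMM factors the median of all genes moved to -0.11 under siRNA1 and 0.25 under siRNA2, and the calls under siRNA2 were 8 higher and 9 lower among the 46 genes (3173 and 1294 among all genes, against 2270 and 2260 with TMM). The calls lost there were those of POLR1C, GAR1, BYSL, LTV1, PES1, GNL3, BRIX1, EBNA1BP2, MRTO4 and NCL. The number called under siRNA2 rested on the first siControl library: 5 genes were called without it (FBL, BOP1 and RRP9 lower, HEATR1 and NOLC1 higher), when 5.1% of all genes were called. Fewer genes were also called without the second siRNA2 library, among the 46 and among all genes, where the median log2 fold change of the 46 was -0.28. Leaving out any other library changed the number less.

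By edgeR, 0 of the 46 genes were called against siControl under both siRNAs; by DESeq2, RRP9 and GNL3 were called lower under both, and NOP10 was called higher with siRNA1 and lower with siRNA2. With the length and GC trend removed, RRP9, UTP14A, NOP16, GNL3 and NCL were called lower under both, and DDX21 and NOP10 were called in opposite directions. The share of all genes called under both siRNAs was not computed, so these counts have no background beside them. In the fit with TMM alone the calls were 19 genes lower under siRNA2 alone, 7 higher under siRNA2 alone and 2 lower under siRNA1 alone, and 18 genes were called under neither. Being called under 1 siRNA and not the other is not itself a test of a difference between them, and the direct comparison of the siRNAs is given further on.

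**Figure D1:**
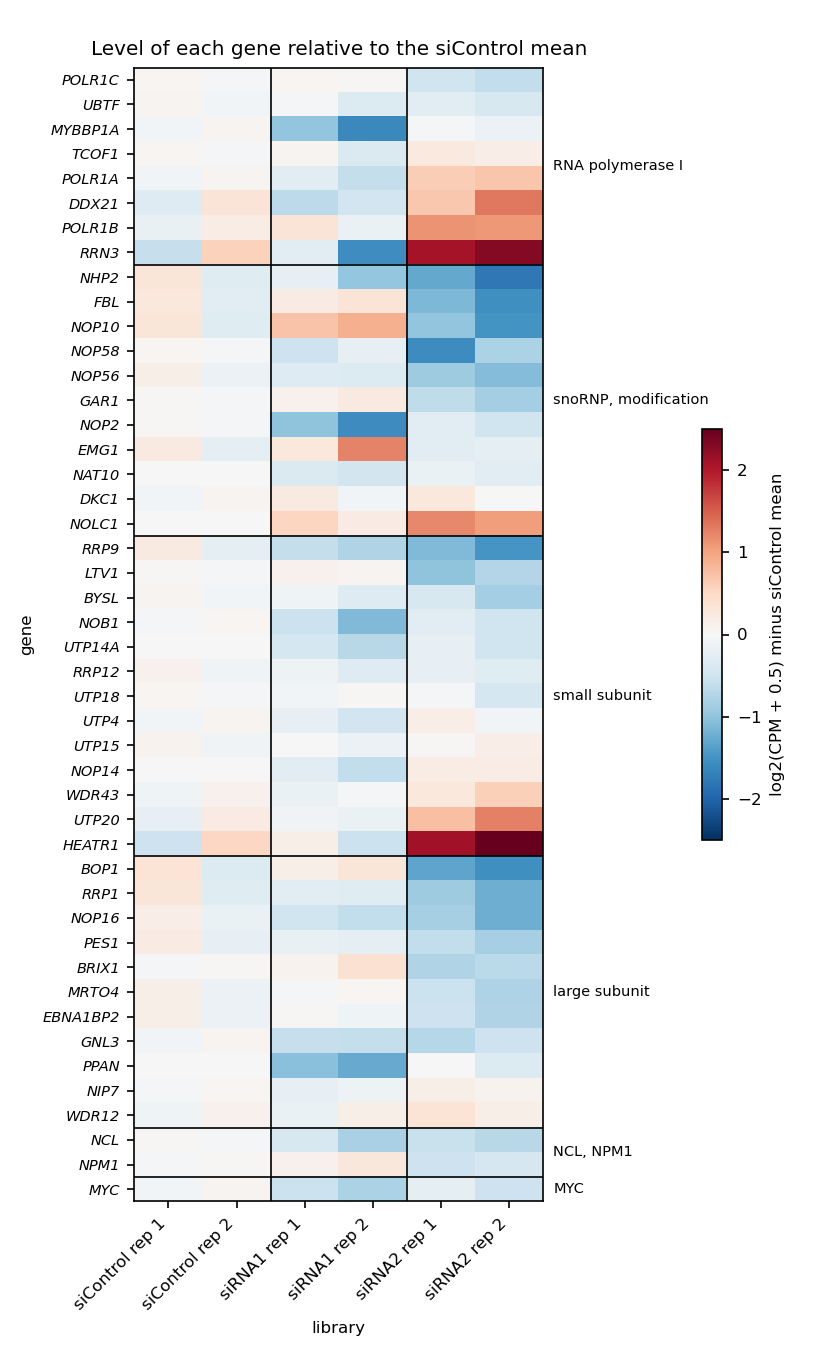
Level of each of the 46 genes (rows, grouped by role) in each of the 6 libraries (columns), as log2(CPM + 0.5) minus the siControl mean; red is higher and blue is lower. The siRNA2 columns hold the strongest colours in both directions, with HEATR1 and RRN3 red and NHP2, BOP1 and FBL blue.

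Among the 8 genes of RNA polymerase I and its factors, 4 rose and 1 fell with siRNA2, and 1 fell with siRNA1. The siRNA2 shares were 50% higher and 12.5% lower, against 15.7% and 15.7% of all genes tested. With siRNA1 12.5% were called lower, against 3.64% of all genes. RRN3 (ENSG00000085721.12, chr16:15060022-15094317, minus strand) is the initiation factor that brings the polymerase to the rRNA promoter. It measured 5.25 and 12.2 CPM in siControl, 6.51 and 2.40 CPM with siRNA1, and 35.5 and 41.3 CPM with siRNA2. Both siRNA2 libraries were above all others, and siRNA1 overlapped siControl. The log2 fold change of RRN3 was 2.13 (SE 0.44, adjusted p = 0.00607) with siRNA2 and -0.99 (SE 0.46, adjusted p = 0.207) with siRNA1. Without the filter on low counts edgeR called RRN3 lower with siRNA1 (-0.998, adjusted p = 0.0169). With siRNA2 the log2 fold change was 1.65 without the first siControl library and 2.88 without the second. With siRNA1 it ran from -1.87 (without the first siRNA1 library) to -0.22 (without the second siControl library). RRN3 has the pseudogene copies RRN3P1 and RRN3P3, between which reads can be split, and their summed means were 7.29 CPM in siControl, 5.39 CPM with siRNA1 and 6.19 CPM with siRNA2.

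POLR1A (ENSG00000068654.15, chr2:86020216-86106155, minus strand), the largest subunit of the polymerase, measured 64.4 and 70.1 CPM in siControl, 55.1 and 44.4 CPM with siRNA1, and 103 and 109 CPM with siRNA2. The 3 groups did not overlap, with siRNA2 highest and siRNA1 lowest. POLR1A rose by 0.66 (SE 0.18, adjusted p = 0.0215) on the log2 scale with siRNA2, but its fitted change was -0.03 (adjusted p = 0.904) once the trend described further on, across length and GC content, was taken out. With siRNA1 its log2 fold change was -0.43 (SE 0.19, adjusted p = 0.174). POLR1B (ENSG00000125630.15, chr2:112541915-112577150, plus strand), the subunit that forms the catalytic core with POLR1A, measured 27.8 and 36.5 CPM in siControl, 39.9 and 28.2 CPM with siRNA1, and 70.4 and 67.8 CPM with siRNA2. The siRNA2 libraries lay at about 2.15 times the siControl level, a log2 fold change of 1.10 (SE 0.23, adjusted p = 0.00567). POLR1C, a subunit shared with RNA polymerase III, went the other way, from 46.5 and 43.7 CPM in siControl and 46.9 and 46.0 CPM with siRNA1 to 31.7 and 29.4 CPM with siRNA2. Its log2 fold change with siRNA2 was -0.56 (SE 0.18, adjusted p = 0.0388), and the call was lost whichever library was left out (adjusted p = 0.0537 to 0.189) and without the filter on low counts (adjusted p = 0.0748).

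DDX21, an RNA helicase that couples rRNA transcription to processing, measured 89.1 and 140 CPM in siControl, 71.1 and 80.2 CPM with siRNA1, and 178 and 279 CPM with siRNA2. Replicates spread widely, but the 3 groups did not overlap. DDX21 had log2 fold changes of 1.00 (SE 0.26, adjusted p = 0.0163) with siRNA2 and -0.60 (SE 0.26, adjusted p = 0.185) with siRNA1. UBTF, the factor that coats the active rRNA genes, was not called under either siRNA: it measured 138 and 125 CPM in siControl, 128 and 103 CPM with siRNA1, and 110 and 99.4 CPM with siRNA2. TCOF1 (treacle), a cofactor of the polymerase, was also not called, with log2 fold changes of -0.13 with siRNA1 (adjusted p = 0.713) and 0.21 with siRNA2 (adjusted p = 0.433).

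MYBBP1A (ENSG00000132382.14, chr17:4538897-4555631, minus strand) is a nucleolar protein that binds transcription factors and takes part in rRNA synthesis and processing. It measured 114 and 126 CPM in siControl, 60.6 and 39.0 CPM with siRNA1, and 116 and 109 CPM with siRNA2. The siRNA1 libraries were below the other 4, which overlapped each other. MYBBP1A had log2 fold changes of -1.27 (SE 0.22, adjusted p = 0.0142) with siRNA1 and -0.10 (SE 0.22, adjusted p = 0.771) with siRNA2. NOP2 (ENSG00000111641.11, chr12:6556863-6568691, minus strand), which methylates a cytosine of the large subunit rRNA, had nearly the same pattern at 143 and 137 CPM in siControl, 69.3 and 46.5 CPM with siRNA1, and 115 and 99.3 CPM with siRNA2. Here siRNA2 lay between the other groups. NOP2 had log2 fold changes of -1.27 (SE 0.22, adjusted p = 0.0131) with siRNA1 and -0.39 (SE 0.21, adjusted p = 0.185) with siRNA2. Both siRNA1 calls were lost without either siControl library or without the second siRNA1 library, where the adjusted p of each reached 0.166 and the log2 fold changes were -1.01 for NOP2 and -0.98 for MYBBP1A. In GENCODE 54.4% of the exon bases of NOP2 overlap AC006064.6 on the same strand, an annotated gene with no row in the table.

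**Figure D2:**
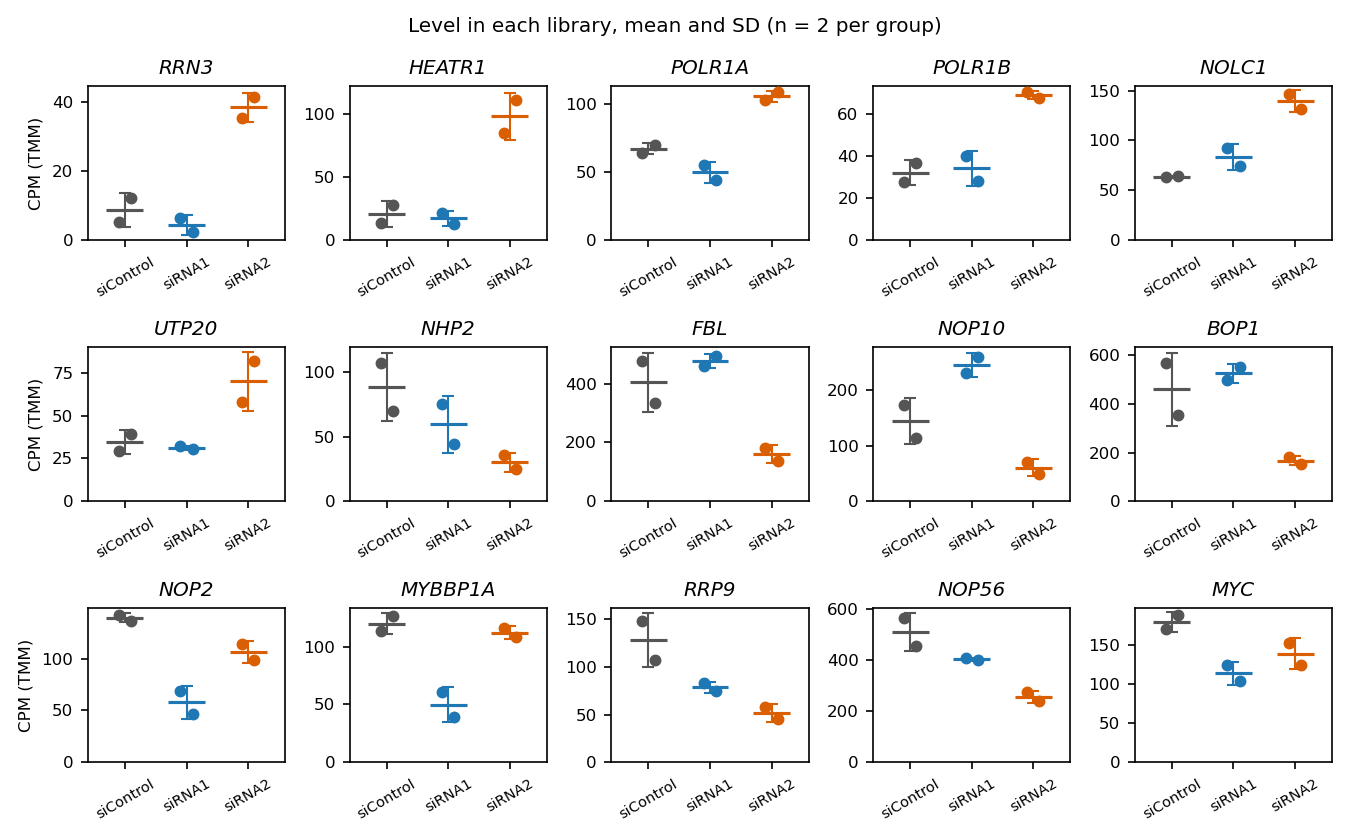
Level of 15 of the genes in CPM after TMM scaling (vertical axis, from 0) in each library of siControl, siRNA1 and siRNA2; points are libraries, the line is the mean and the bar the SD (n = 2). RRN3 and HEATR1 are highest with siRNA2, FBL, NHP2, NOP10 and BOP1 are lowest with siRNA2, and NOP2, MYBBP1A and MYC are lowest with siRNA1.

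Of the 11 snoRNP proteins and rRNA modification enzymes, 6 fell and 1 rose with siRNA2, with a median log2 fold change of -0.75. That is 54.5% called lower and 9.09% called higher, against 15.7% and 15.7% of all genes tested. With siRNA1 NOP2 was the 1 gene called (9.09%, against 3.64% of all genes called lower), and the median was 0.08. The box C/D core proteins FBL, NOP56 and NOP58 were called lower with siRNA2, as was SNU13, a core protein outside the 46 genes (log2 fold change -1.02, adjusted p = 0.00562). FBL (ENSG00000105202.8, chr19:39834458-39846414, minus strand) measured 476 and 332 CPM in siControl, 459 and 495 CPM with siRNA1, and 181 and 138 CPM with siRNA2. Its siRNA2 libraries lay far below the other 4, and its log2 fold change was -1.34 (SE 0.23, adjusted p = 0.0033), called whichever library was left out. NOP56, which with NOP58 holds the guide RNA in place, measured 563 and 456 CPM in siControl, 407 and 399 CPM with siRNA1, and 273 and 238 CPM with siRNA2, a log2 fold change of -0.99 (SE 0.20, adjusted p = 0.00523) with siRNA2. NOP58 measured 150 and 140 CPM in siControl, 102 and 125 CPM with siRNA1, and 48.7 and 84.1 CPM with siRNA2, a log2 fold change of -1.13 (SE 0.25, adjusted p = 0.00768). Both NOP56 and NOP58 also lay below siControl in the siRNA1 libraries without overlap, at log2 fold changes of -0.34 (adjusted p = 0.315) and -0.35 (adjusted p = 0.402).

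Of the 4 box H/ACA proteins, which carry out pseudouridylation and also bind telomerase RNA, the 3 small ones fell with siRNA2 and the enzyme was not called. NHP2 (ENSG00000145912.8, chr5:178149460-178153967, minus strand) measured 107 and 70.2 CPM in siControl, 75.1 and 44.0 CPM with siRNA1, and 35.5 and 24.9 CPM with siRNA2. Its log2 fold change with siRNA2 was -1.56 (SE 0.30, adjusted p = 0.00459). Of the exon bases of NHP2, 27.4% overlap RMND5B on the opposite strand. The mean of RMND5B was 43.9 CPM in siControl, 30.6 CPM with siRNA1 and 38.0 CPM with siRNA2. NOP10 measured 174 and 115 CPM in siControl, 231 and 261 CPM with siRNA1, and 71.2 and 49.7 CPM with siRNA2. The 3 groups of NOP10 did not overlap, with siRNA1 above and siRNA2 below siControl. NOP10 had log2 fold changes of -1.26 (SE 0.25, adjusted p = 0.0049) with siRNA2 and 0.77 (SE 0.24, adjusted p = 0.083) with siRNA1. GAR1 measured 46.4 and 44.1 CPM in siControl, 49.0 and 53.1 CPM with siRNA1, and 28.9 and 25.0 CPM with siRNA2, a log2 fold change of -0.75 (SE 0.19, adjusted p = 0.0139) with siRNA2. DKC1, the pseudouridine synthase itself, was not called, at 130 and 141 CPM in siControl, 158 and 128 CPM with siRNA1, and 162 and 136 CPM with siRNA2. These groups overlapped throughout, and the log2 fold change with siRNA2 was 0.14 (adjusted p = 0.604).

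NOLC1 (ENSG00000166197.16, chr10:102152176-102163871, plus strand), a chaperone that accompanies both kinds of snoRNP, was the gene of this group that rose. It measured 63.2 and 64.4 CPM in siControl, 92.6 and 74.0 CPM with siRNA1, and 147 and 132 CPM with siRNA2. The groups did not overlap, and siRNA2 was highest. NOLC1 had log2 fold changes of 1.13 (SE 0.19, adjusted p = 0.00294) with siRNA2, called whichever library was left out, and 0.38 (SE 0.19, adjusted p = 0.223) with siRNA1. The acetyltransferase NAT10 and the methyltransferase EMG1 were not called against siControl, with log2 fold changes of -0.41 and 0.86 with siRNA1 (adjusted p = 0.166 and 0.143) and of -0.22 and -0.29 with siRNA2 (adjusted p = 0.354 and 0.55). Of the exon bases of EMG1, 49.5% overlap LPCAT3 on the opposite strand, and the reads of such pairs cannot be told apart in libraries without strand information.

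Of the 13 genes of small subunit processing, HEATR1 and UTP20 rose and RRP9, LTV1 and BYSL fell with siRNA2. That is 38.5% called (15.4% higher and 23.1% lower), near the 31.4% of all genes tested (15.7% and 15.7%). With siRNA1 edgeR called 0 of them, with 12 of 13 fitted lower and a median log2 fold change of -0.22, and DESeq2 called RRP9 and NOB1. By edgeR 3 had an unadjusted p under 0.05, against 3644 of all 14415 genes. HEATR1 (ENSG00000119285.10, chr1:236549005-236604504, minus strand), a large scaffold of the processome that is also needed for rRNA transcription, measured 13.5 and 28.1 CPM in siControl, 21.6 and 13.2 CPM with siRNA1, and 85.0 and 112 CPM with siRNA2. The siRNA1 and siControl libraries overlapped, and the siRNA2 libraries were several times higher. HEATR1 rose by 2.24 on the log2 scale with siRNA2 (SE 0.34, adjusted p = 0.00243) and was called whichever library was left out, from 1.80 without the first siControl library to 2.87 without the second. Of its exon bases 23.2% overlap LGALS8 on the opposite strand, whose mean was 33.2 CPM in siControl, 86.9 CPM with siRNA1 and 53.6 CPM with siRNA2. UTP20, another large scaffold, measured 29.6 and 39.4 CPM in siControl, 32.1 and 30.3 CPM with siRNA1, and 57.9 and 82.1 CPM with siRNA2, a log2 fold change of 1.02 (SE 0.23, adjusted p = 0.00829).

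RRP9, a protein of the U3 snoRNP that starts small subunit processing, measured 148 and 108 CPM in siControl, 82.8 and 74.6 CPM with siRNA1, and 58.4 and 45.2 CPM with siRNA2. The 3 groups did not overlap and both siRNAs lay below siControl. The log2 fold change of RRP9 was -1.30 (SE 0.22, adjusted p = 0.0029) with siRNA2, called whichever library was left out, and -0.70 (SE 0.21, adjusted p = 0.0747) with siRNA1. LTV1, a late maturation factor, measured 23.6 and 22.9 CPM in siControl, 25.2 and 24.4 CPM with siRNA1, and 11.4 and 13.8 CPM with siRNA2, a log2 fold change of -0.89 (SE 0.22, adjusted p = 0.0129) with siRNA2. BYSL fell by 0.62 (adjusted p = 0.0402) on the log2 scale with siRNA2. The other 8 genes of this group (UTP4, UTP14A, UTP15, UTP18, WDR43, NOP14, RRP12 and NOB1) were not called against siControl, with log2 fold changes between -0.40 and 0.43 under siRNA2. Of these NOB1, the nuclease that makes the final cut of the small subunit rRNA, was the nearest to a call, at 66.3 and 70.0 CPM in siControl and 46.6 and 31.4 CPM with siRNA1 (log2 fold change -0.81, adjusted p = 0.0558).

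Of the 11 genes of large subunit processing, 8 fell with siRNA2 (72.7%, against 15.7% of all genes called lower), with a median log2 fold change of -0.66. With siRNA1 edgeR called 0 of them, with a median of -0.17, and DESeq2 called GNL3. By edgeR 3 had an unadjusted p under 0.05, against 3644 of all 14415 genes. BOP1 (ENSG00000261236.7), which forms a complex with PES1 and WDR12 that is needed for large subunit rRNA processing, measured 568 and 354 CPM in siControl, 499 and 554 CPM with siRNA1, and 180 and 154 CPM with siRNA2. As for FBL, the siRNA2 libraries of BOP1 were below all others while siRNA1 overlapped siControl. The log2 fold change of BOP1 with siRNA2 was -1.46 (SE 0.24, adjusted p = 0.00303), called whichever library was left out. PES1 measured 254 and 191 CPM in siControl, 193 and 186 CPM with siRNA1, and 144 and 123 CPM with siRNA2, a log2 fold change of -0.73 (adjusted p = 0.0187) with siRNA2. WDR12, the third protein of the complex, was not called, at 72.3 and 83.2 CPM in siControl, 69.0 and 85.6 CPM with siRNA1, and 97.8 and 86.4 CPM with siRNA2.

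Assembly factors of the large subunit made up the rest. NOP16 measured 70.4 and 55.4 CPM in siControl, 43.9 and 40.4 CPM with siRNA1, and 34.7 and 26.4 CPM with siRNA2, with a log2 fold change of -1.04 (SE 0.21, adjusted p = 0.00574) for siRNA2 and -0.58 (adjusted p = 0.122) for siRNA1. RRP1 measured 157 and 103 CPM in siControl, 106 and 104 CPM with siRNA1, and 68.3 and 54.6 CPM with siRNA2, a log2 fold change of -1.08 (SE 0.23, adjusted p = 0.00604) with siRNA2. Both genes were lowest in the siRNA2 libraries. BRIX1 measured 103 and 107 CPM in siControl, 112 and 137 CPM with siRNA1, and 61.8 and 65.2 CPM with siRNA2, a log2 fold change of -0.73 (SE 0.18, adjusted p = 0.0129). GNL3 (nucleostemin) lay at a like level with both siRNAs, at 156 and 170 CPM in siControl, 109 and 108 CPM with siRNA1, and 99.8 and 113 CPM with siRNA2. Its log2 fold change was -0.59 (adjusted p = 0.0702) with siRNA1 and -0.62 (adjusted p = 0.0222) with siRNA2, so edgeR called it under siRNA2 alone, while DESeq2 (adjusted p = 0.0312) and the fit with the trend removed (adjusted p = 0.0101) also called it lower with siRNA1. EBNA1BP2 and MRTO4 fell by 0.64 and 0.66 on the log2 scale with siRNA2 (adjusted p = 0.0282 and 0.0217). NIP7 and PPAN were not called against siControl. PPAN had few reads, at 2.56 and 2.57 CPM in siControl, 0.979 and 0.782 CPM with siRNA1, and 2.60 and 1.91 CPM with siRNA2, and 56.0% of its exon bases are shared with the readthrough gene PPAN-P2RY11, listed at 0.

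The remaining members were the abundant nucleolar proteins NCL (nucleolin) and NPM1 (nucleophosmin). NCL measured 796 and 756 CPM in siControl, 591 and 445 CPM with siRNA1, and 524 and 479 CPM with siRNA2, and was called lower with siRNA2 (log2 fold change -0.63, adjusted p = 0.0435) and not with siRNA1 (-0.58, adjusted p = 0.119). The siRNA2 call of NCL was lost whichever library was left out (adjusted p = 0.0533 to 0.186), and NCL, once the length and GC trend was removed, was called lower under both siRNAs (adjusted p = 0.0365 and 0.00386). NPM1 measured 1246 and 1287 CPM in siControl, 1359 and 1536 CPM with siRNA1, and 887 and 943 CPM with siRNA2. Its siRNA2 libraries were lowest, but edgeR called neither siRNA against siControl, with log2 fold changes of 0.19 with siRNA1 (adjusted p = 0.616) and -0.47 with siRNA2 (adjusted p = 0.113), while DESeq2 called it lower with siRNA2 (-0.48, adjusted p = 0.0244). NPM1 has 45 annotated pseudogenes, which summed to 19.3 to 30.3 CPM as group means.

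MYC (ENSG00000136997.17) measured 170 and 189 CPM in siControl, 124 and 104 CPM with siRNA1, and 153 and 125 CPM with siRNA2. The siControl libraries were the highest and the siRNA1 libraries the lowest, with no overlap between any 2 groups. None of these differences was called by edgeR's quasi-likelihood test: the log2 fold change was -0.66 (SE 0.19, adjusted p = 0.0665) with siRNA1, -0.37 (SE 0.19, adjusted p = 0.161) with siRNA2, and 0.29 (SE 0.19, adjusted p = 0.252) for siRNA2 against siRNA1. With siRNA1 MYC was called lower by DESeq2 (-0.63, adjusted p = 0.0308), without the filter on low counts (-0.66, adjusted p = 0.0374) and after the length and GC trend was removed (-0.54, adjusted p = 0.0295). MYC was not called without TMM factors (-0.74, adjusted p = 0.056). Nor was it called with the trend removed and the replicate number as a block (-0.54, adjusted p = 0.0551). Over left-out libraries the log2 fold change of MYC with siRNA1 ran from -0.80 to -0.53.

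**Figure D3:**
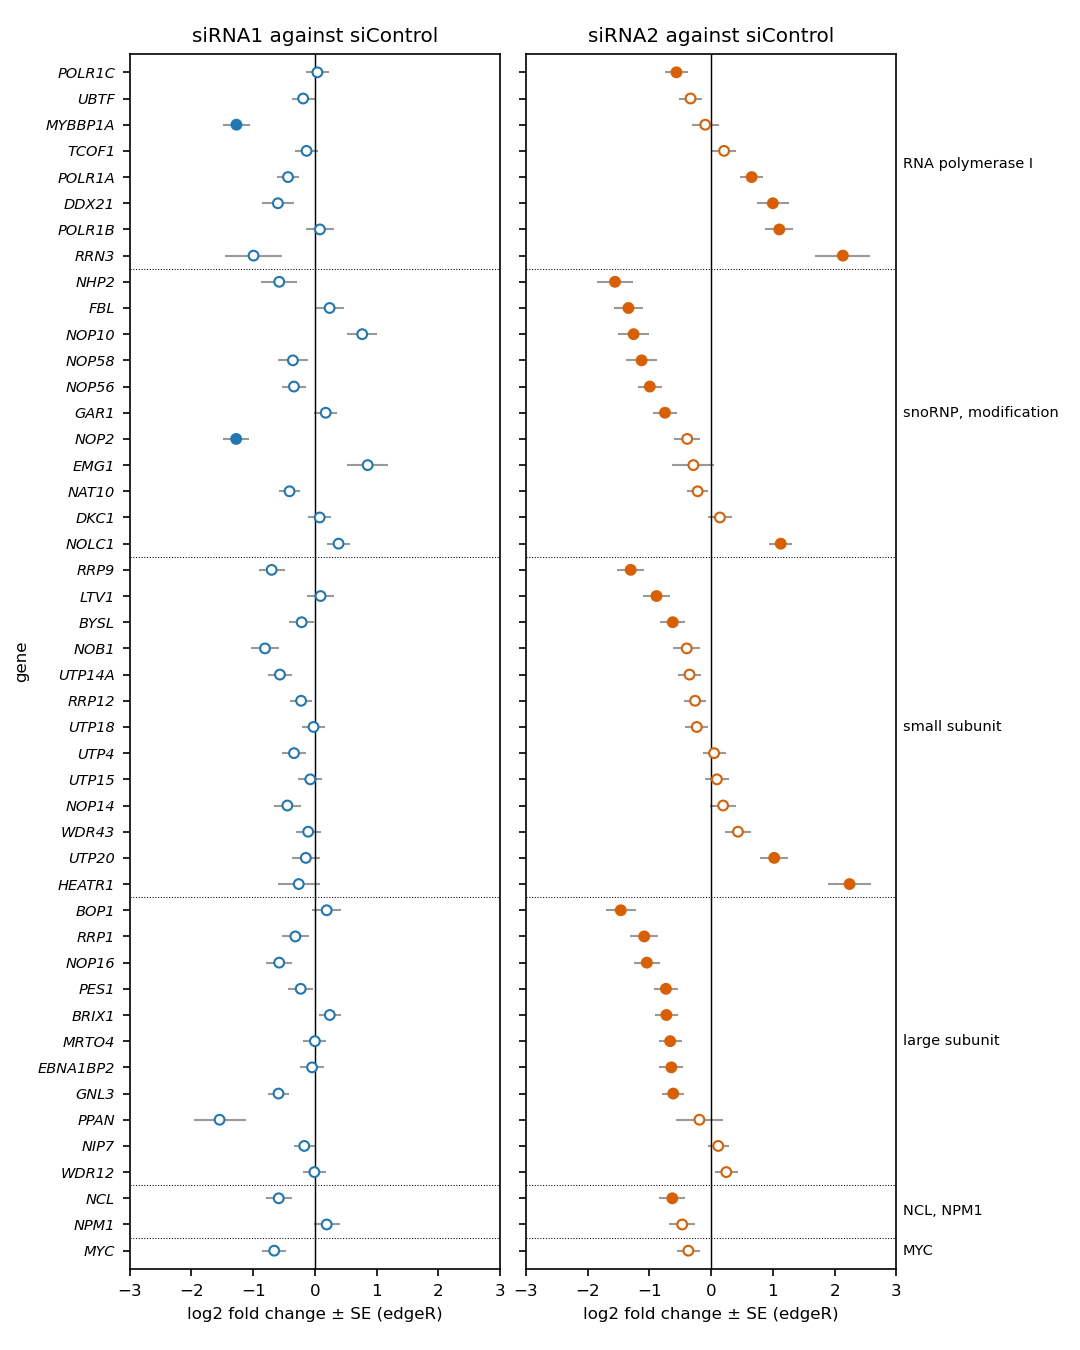
Log2 fold change of each of the 46 genes against siControl (horizontal axis, bars are the SE from edgeR) with siRNA1 (left) and siRNA2 (right), in the same order and groups of role; filled points are called. Only NOP2 and MYBBP1A are filled on the left, while 26 points are filled on the right, from -1.56 (NHP2) to 2.24 (HEATR1).

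The direct comparison of the siRNAs uses no siControl mean. Its filter, scaling and estimate of the spread came from all 6 libraries, the siControl libraries among them. In it, 27 of the 46 genes (58.7%) were called, against 39.7% of all genes tested. With siRNA2, 11 were higher than with siRNA1 (23.9% of the 46, against 21.1% of all genes) and 16 were lower (34.8%, against 18.6%), and the libraries did not overlap in 39 genes, against 72.1% of all genes tested. By role, 5 RNA polymerase I genes were higher and 1 lower (median log2 fold change 1.06), 2 snoRNP and modification genes were higher and 7 lower (median -0.77), 3 small subunit genes were higher and 2 lower, and 1 large subunit gene was higher and 5 lower (median -0.50). RRN3 and HEATR1 had the largest positive log2 fold changes, at 3.13 (SE 0.47, adjusted p = 0.00101, but 2.55 without the second siRNA1 library and 3.995 without the first) and 2.50 (SE 0.35, adjusted p = 0.000772). NOP10, BOP1 and FBL had the largest negative ones, at -2.02 (adjusted p = 0.000563), -1.66 (adjusted p = 0.000971) and -1.58 (adjusted p = 0.000968).

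Both genes called under siRNA1 differed between the siRNAs, with MYBBP1A at 1.17 (adjusted p = 0.00244) and NOP2 at 0.89 (adjusted p = 0.0082) for siRNA2 against siRNA1. POLR1A (1.09, adjusted p = 0.0016) and DDX21 (1.60, adjusted p = 0.00148) also differed, and in both the siRNA1 libraries lay below and the siRNA2 libraries above siControl. EMG1 (-1.14, adjusted p = 0.0206), NOP14 (0.64, adjusted p = 0.0368), PPAN (1.35, adjusted p = 0.0256) and NPM1 (-0.66, adjusted p = 0.0288) were called by edgeR in this comparison alone, although DESeq2 also called NPM1 for siRNA2 against siControl. The call of PPAN, with 14 counts in each siRNA1 library, was lost by DESeq2 (1.32, adjusted p = 0.0595). That of NOP14 was lost without the filter on low counts (0.64, adjusted p = 0.061). The log2 fold change of EMG1 was -0.56 without the second siRNA1 library. GNL3 (-0.03, adjusted p = 0.916) and NCL (-0.05, adjusted p = 0.882), which lay below siControl in both, did not differ between the siRNAs beyond their spread in this fit, though NCL was called lower with siRNA2 than with siRNA1 once the length and GC trend was removed (-0.50, adjusted p = 0.0354). Without TMM factors the median of all genes was 0.37 in place of 0.04 and the calls among the 46 genes were 19 higher and 5 lower, while all genes gave 4534 higher and 1496 lower in place of 3047 and 2678. Without the second siRNA1 library fewer genes were called, among the 46 and among all genes, and the call of NOP2 was lost (log2 fold change 0.62).

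**Figure D4:**
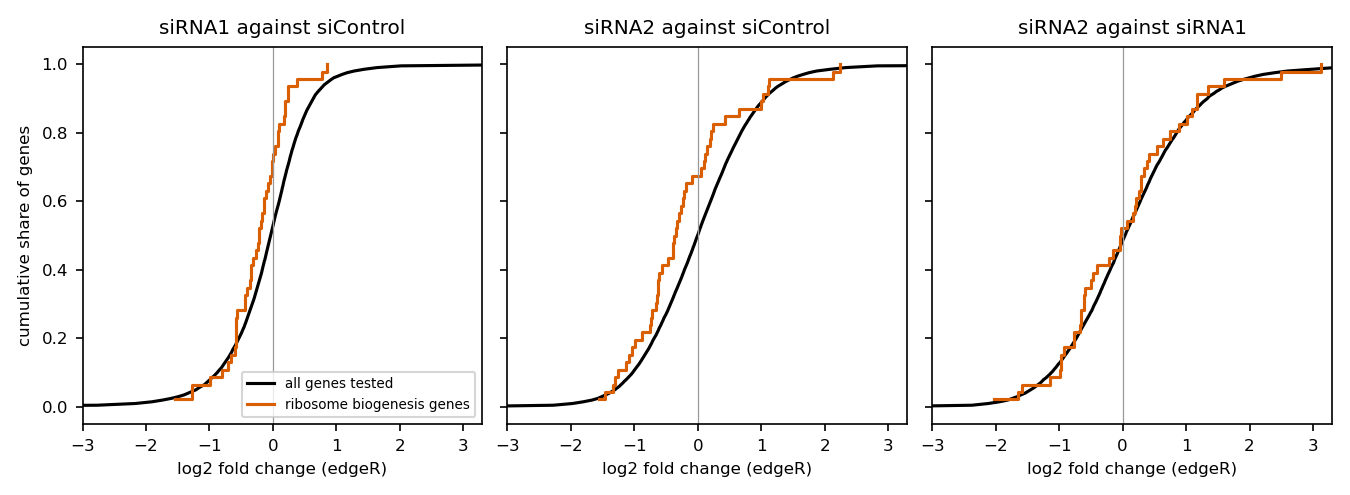
Cumulative share of genes (vertical axis) at or below each log2 fold change (horizontal axis) for siRNA1 against siControl (left), siRNA2 against siControl (middle) and siRNA2 against siRNA1 (right), with the 46 genes in orange and all genes tested in black. Against siControl the orange line lies left of the black one around the middle (medians -0.22 beside -0.03 with siRNA1 and -0.36 beside 0.00 with siRNA2). For siRNA2 against siRNA1 the medians are close (-0.03 beside 0.04), but 34.8% of the 46 genes were called lower, against 18.6% of all genes.

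A further 133 genes of the same pathway were looked at as a list, of which 131 could be tested. With siRNA2 57 of them (43.5%) were called, 15 higher and 42 lower, with a median log2 fold change of -0.30, beside 31.4% and 0.00 for all genes. With siRNA1 6 (4.58%) were called, 1 higher and 5 lower, with a median of -0.06, beside 5.88% and -0.03 for all genes. By role, siRNA2 gave 1 higher and 5 lower among 16 other RNA polymerase I subunits and factors, 6 and 13 among 44 small subunit genes, 5 and 15 among 46 large subunit genes, and 3 and 9 among 25 genes of the nuclear exosome and rRNA nucleases.

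Among the other RNA polymerase I genes, BAZ2A, which silences rRNA genes, measured 33.6 and 47.5 CPM in siControl and 123 and 146 CPM with siRNA2 (log2 fold change 1.73, adjusted p = 0.00191). The small shared polymerase subunit POLR2L went from 547 and 264 CPM to 94.4 and 66.4 CPM (-2.34, adjusted p = 0.00182), and the shared subunit POLR2H also fell (-0.96, adjusted p = 0.00648). Of the large subunit genes, MDN1, a very large ATPase that strips assembly factors from the pre-ribosome, measured 23.9 and 29.1 CPM in siControl and 74.2 and 98.9 CPM with siRNA2 (1.71, adjusted p = 0.00179). WDR18, which works in the same step, measured 343 and 182 CPM in siControl and 64.0 and 58.1 CPM with siRNA2 (-2.10, adjusted p = 0.00179). EIF6 (-1.70, adjusted p = 0.00241), the small subunit genes TSR3 (-1.51, adjusted p = 0.0049), NOC4L (-1.27, adjusted p = 0.0029) and TBL3 (-1.03, adjusted p = 0.00503), the exosome subunits EXOSC4 (-1.55, adjusted p = 0.00324) and EXOSC5 (-1.08, adjusted p = 0.00593) and the nuclease subunit POP7 (0.498 of siControl, adjusted p = 0.00722) also fell. With siRNA1 the 5 genes that fell were PELP1 (-0.82, adjusted p = 0.0361), RSL1D1 (-0.73, adjusted p = 0.0472), GNL2 (-0.75, adjusted p = 0.0472), RPP25 (-0.96, adjusted p = 0.031) and EXOSC6 (-0.75, adjusted p = 0.0393), and RIOK3 rose (0.74, adjusted p = 0.0428).

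Transcript length moved with the siRNA2 calls. The longest transcripts of the 7 genes that rose were 3762 to 12749 nucleotides long (median 5059), those of the 19 that fell 554 to 4034 (median 2046), and those of the 20 not called 1657 to 8100 (median 3737). Median GC content was 42.3% in the genes that rose, 50.9% in those that fell and 50.8% in those not called. The order by length was also seen over all genes tested. Their median log2 fold change with siRNA2 was -0.63 for transcripts up to 1500 nucleotides, -0.30 up to 3000, 0.09 up to 4500, 0.33 up to 6000 and 0.50 above. The 46 genes gave medians of -1.26 (5 genes), -0.63 (18), 0.08 (12), 0.09 (7) and 0.84 (4) in these bins. With siRNA1 the medians of all genes stayed between -0.08 and 0.04, so no such order was present.

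When a smooth trend across length and GC content was taken out of each library, siRNA2 gave 4 higher and 21 lower among the 46 genes (26.0% of all genes were called), and 21 of these 25 were calls of the same direction as before. RRN3, HEATR1, DDX21 and NOLC1 were still called higher. The calls of POLR1A (-0.03, adjusted p = 0.904), POLR1B (0.53, adjusted p = 0.0529), UTP20 (0.38, adjusted p = 0.0787), BYSL (-0.25, adjusted p = 0.191) and BRIX1 (-0.33, adjusted p = 0.0986) were lost. UBTF (-0.62, adjusted p = 0.0104), NAT10 (-0.55, adjusted p = 0.0137), UTP4 (-0.47, adjusted p = 0.0284) and UTP14A (-0.47, adjusted p = 0.0294) were then called lower. With siRNA1 the same step gave 1 higher (NOP10, 0.66, adjusted p = 0.0319) and 10 lower: NOP2, MYBBP1A, MYC, DDX21, RRP9, UTP14A, NOB1, NOP16, GNL3 and NCL, or 23.9% of the 46 against 12.9% of all genes. For siRNA2 against siRNA1, where the medians of all genes ran from -0.70 in the shortest bin to 0.42 in the longest, it gave 11 higher and 15 lower (40.1% of all genes called). POLR1A and POLR1B were still called there at smaller log2 fold changes, of 0.42 (adjusted p = 0.0294) and 0.54 (adjusted p = 0.0357). The calls of NOP58, NHP2, NOLC1, RRP9, NOP14 and NPM1 were lost in that comparison, and UBTF, PES1 and NCL were called lower and WDR43 and NOB1 higher. Whether the length trend arose in the cells or in the preparation of the libraries was not tested.

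**Figure D5:**
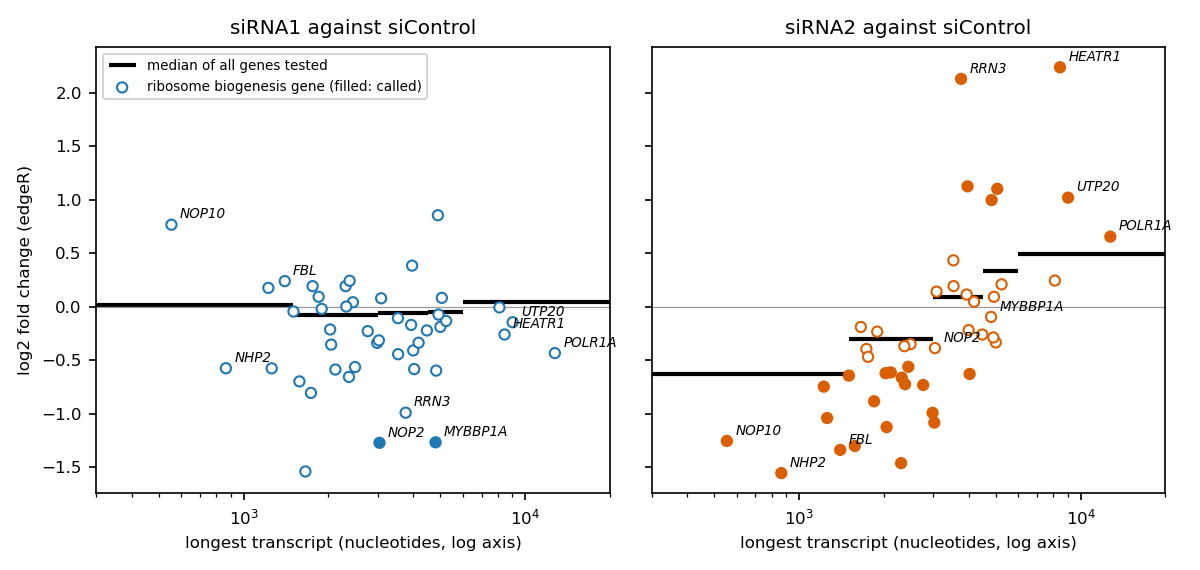
Log2 fold change against siControl (vertical axis) by length of the longest transcript in nucleotides (horizontal log axis) for siRNA1 (left) and siRNA2 (right); points are the 46 genes, filled where called, and black lines are medians of all genes tested in each length bin. With siRNA2 the black lines climb from -0.63 to 0.50 and the points climb with them, while with siRNA1 the lines stay between -0.08 and 0.04.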

How the data were processed

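Polyadenylated RNA of T24 cells was selected with oligo dT beads, the libraries kept no strand information, and the values deposited are raw counts, as whole numbers, of reads for each gene. The submitters' processing notes name FastQC, cutadapt, STAR and hg38. The counting tool and annotation release were not given in the sources used here. Reads of overlapping genes and of pseudogene copies can be assigned to either.

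Symbols, coordinates and lengths (longest transcript) came from GENCODE release 29, which held 99.5% of the identifiers, and promoters from RefSeq (GRCh38.p14). Columns were matched to libraries by name. The tests were run with edgeR 4.0.16 under R 4.3.3 (filterByExpr by group, TMM, quasi-likelihood test, 1 mean per group over all 6 libraries, two-sided, Benjamini-Hochberg adjustment, threshold 0.05). The length and GC trend was removed with splines of 5 degrees of freedom. The scripts were tested on simulated counts.

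The genes and lists were chosen with earlier results of these data known. The naming rule took NOP2, MYC, POLR1A, POLR1B, POLR1C, RRN3 and UBTF, the 20 genes of lowest p among those called against siControl, and up to 3 called genes of each other list; the library values of DKC1, PES1, WDR12, GNL3, PPAN, NCL, NPM1 and NOB1 were added after they were seen. Over genes, depth gives a counting error that is small beside the spread of 2 libraries, so the number of libraries limits precision. This does not hold for genes of few reads such as PPAN, with 39 and 42 counts in siControl. Nothing but the replicate label says that the libraries came from separate cultures, and p-values measure the spread between them. The alternatives tried were 2-group fits, DESeq2 1.42.0, library size without TMM, no filter, the replicate number as a block, a threshold of 0.01, the trend removal and each library left out.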

Additional observations from a re-analysis of the deposited data

How the results depend on the processing

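With 2 libraries per group, the number of calls depended on single libraries and on the scaling, and the causes were not tested. The share of all genes called also changed with the library left out, so this was not particular to the listed genes. With siRNA1, the 2 calls (lower) became 7 by DESeq2 (1 higher, 6 lower, with 10.5% of all genes called). They became 8 without the filter (1 and 7, 6.5%) and 6 in a fit of the 2 groups alone (2 and 4, 12%). Removal of the length and GC trend gave 11 (1 and 10, 12.9%), and a threshold of 0.01 gave 0 (0.388%). With a library left out, the median log2 fold change of the listed genes ran from -0.33 to -0.16. That of all genes ran from -0.047 to 0.004. With siRNA2, the 26 calls (7 higher, 19 lower) became 17 without TMM factors (9 lower; 31% of all genes), 14 at a threshold of 0.01 (9 lower; 13.9%) and 25 with the trend removed (4 higher, 21 lower; 26%); leaving out a library gave 5 to 23 calls (2 to 7 higher, 3 to 16 lower). For siRNA2 against siRNA1, the 27 calls (11 higher, 16 lower) became 24 without TMM factors (19 higher, 5 lower; 41.8% of all genes) and 15 at a threshold of 0.01 (6 lower; 22.1%); leaving out a library gave 13 to 27 calls (6 to 12 higher, 7 to 17 lower).

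The replicate numbers were not taken as pairs, since deviations of same-numbered libraries correlated at -0.09 (siControl with siRNA1), 0.15 and 0.14. The replicate block gave 4 calls with siRNA1 (4 lower, 6.5% of all genes called), 26 with siRNA2 (33%) and 30 for siRNA2 against siRNA1 (41.9%). With the trend removed as well there were 9 with siRNA1 (1 higher, 8 lower, 9.18%) and 22 with siRNA2 (4 higher, 21.9%). The sign of POLR1A with siRNA2 turned to -0.025 with the trend removed and to -0.028 with the block added. With siRNA1, where neither was called, POLR1B turned to -0.0089 without TMM factors, -0.0097 with the trend removed, -0.023 with the block added, and ranged from -0.19 to 0.33 over left-out libraries (-0.10 without the first siControl library). POLR1C turned to -0.035, -0.029 and -0.028 under the same 3 alternatives.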

Other observations

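MYC pairs with MAX, and the MXD proteins, MNT and MGA compete with it for MAX at the same E-box. MAX was not called under either siRNA, at 43.9 and 46.6 CPM in siControl, 35.7 and 37.5 CPM with siRNA1, and 48.7 and 41.0 CPM with siRNA2. With siRNA2, 5 of the 10 tested genes of this network were called, 2 higher and 3 lower, beside 31.4% of all genes, and their median log2 fold change was 0.00. MXD3 fell from 51.8 and 33.0 CPM to 15.5 and 13.5 CPM (log2 fold change -1.55, SE 0.25, adjusted p = 0.00282). MXD4 (-0.93, adjusted p = 0.0113) and MLX (-0.86, adjusted p = 0.00948) fell as well, while MXI1 (0.67, adjusted p = 0.0241) and MGA (0.87, adjusted p = 0.0323) rose. With siRNA1 MXD1 measured 6.72 and 5.47 CPM, above 2.76 and 2.99 CPM in siControl without overlap, and was not called (1.08, adjusted p = 0.0615). MYCN was listed at 0 in all 6 libraries. All adjusted p are from edgeR's quasi-likelihood test over all genes tested.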
